A study of Saccharomyces cerevisiae with 46 samples.

Results

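Reporter terminators whose middle insert is motif T (modNTN) were compared with terminators whose inserts are all random sequence (modNNN). All libraries with these terminators were taken by their labels: 6 libraries with modNTN and 8 with modNNN, together 14 of the 34 libraries with counts and of the 46 samples listed in the series. The reporter is mCherry, a red fluorescent protein gene, on a low copy plasmid that also carries URA3, the marker that lets the yeast grow without uracil. It was built in 3 contexts named by promoter and terminator. In pRPS3-tRPS3 both come from the ribosomal protein gene RPS3, and 4 libraries have modNNN and 2 have modNTN. In pPGK1-tRPS3 the promoter comes from the glycolytic gene PGK1, and in pTSA1-tTSA1 both parts come from the peroxiredoxin gene TSA1, with 2 libraries of each terminator in either context. All 14 libraries come from the laboratory strain BY4741 carrying a reporter plasmid, and growth in SC-Ura, a synthetic medium that lacks uracil, lasted 4 h (30 °C, 200 rpm) and ended at an OD600 of 0.7. Total RNA was read by QuantSeq REV, which primes at the poly(A) tail, so that each read marks the 3′ end of a transcript. Every modified terminator, modNNN included, holds 9 bp inserts at 3 sites, 27 bases in all. Whether the outer random inserts of modNTN are those of modNNN is not given in the sources used here.

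A yeast terminator tells the cleavage and polyadenylation machinery where to cut the transcript and add the poly(A) tail, and the sequence before the cut stays in the messenger as its 3′ untranslated region (3′ UTR). A core UGUA followed by an AU-rich stretch is the element bound by Puf (Pumilio family) proteins, which in yeast recruit the deadenylation and decay machinery to many messengers. UA-rich elements of the TATATA type upstream of the cut are in turn part of the yeast polyadenylation signal, bound by Hrp1.

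The motifs of the series are shown first because the comparison turns on the middle one, written as DNA 5′ to 3′ in capitals.
motif T, the middle insert of modNTN: TGTACAATA
motif H, on both sides of motif T in the modHTH terminator: TTTCATTTC
motif A, in the last 2 inserts of the modNAA terminator: ATATTC
The native sequence of each terminator is shown around its main 3′ ends, from the RefSeq R64 genome on the plus strand. Capitals mark the bases that each held at least 5% of the native gene's ends, and positions count from the first base after the stop codon.
RPS3, chrXIV:303443-303472, positions 41 to 70: atttcttCTattCTagtGCactTaattgtt
TSA1, chrXIII:220817-220846, positions 89 to 118: ttaatgctattCacTGaCaaaacgatacac
The capitals of RPS3 together held 83.0% of its ends and those of TSA1 74.2%. Read this way, the base after the listed end was A for 73.7% of native ends and the listed base itself was A for 4.17%. Positions in the reporter are given as deposited and are not corrected for the inserts.

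Library totals ran from 1013603 to 3849179 counts (median 1713879), with 2783 to 23208 mCherry counts and 2132 to 14605 URA3 counts. Levels are given in CPM, the count of a gene scaled by the library total and its TMM factor. Strain markers mostly fitted the label. STE2, the receptor that marks MATa cells, stood at 245.6 to 394.1 CPM. The other MATa genes were MFA1 (215.3 to 1019), MFA2 (1429 to 1907), BAR1 (43.85 to 107.9) and AGA2 (24.68 to 62.05 CPM). Of the MATα genes, MF(ALPHA)1 stood at 0 to 3.13, STE3 at 1.976 to 7.814 and SAG1 at 8.352 to 22.56 CPM. MET17, deleted in BY4741, was at 0 in all 14 libraries and LEU2 reached 0.572 CPM. HIS3, of which BY4741 keeps a part, stood at 79.6 to 154.6 CPM. Native PGK1 (249 to 3770 CPM) and RPL25 (138 to 2532 CPM) varied widely between replicates of single groups. Nothing in the labels says whether replicates were separate cultures, and no day or batch is given, so p-values measure the spread between these libraries, which may be technical. Reads are not independent molecules where no molecular identifiers were counted.

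In both tRPS3 contexts, reporter transcripts with modNTN ended farther downstream than those with modNNN. Behind the RPS3 promoter the mean 3′ end lay at 66.0, 66.4, 66.7 and 67.3 nt after the stop codon in the 4 modNNN libraries and at 72.9 and 72.8 nt in the 2 modNTN libraries. Behind the PGK1 promoter it lay at 64.2 and 65.1 nt with modNNN and at 71.9 and 72.1 nt with modNTN. The groups did not overlap in either context. The shift was 6.27 nt behind the RPS3 promoter (exact 2-sided permutation p 0.0667, the smallest of 15 arrangements) and 7.34 nt behind the PGK1 promoter (exact p 0.333, the smallest of 6 arrangements), so neither context alone could reach 0.05. Over both tRPS3 contexts it was 6.80 nt (exact permutation p 0.0111, the smallest of 90 arrangements; 0.0444 adjusted over the 8 contrasts computed). The shift behind the PGK1 promoter exceeded that behind the RPS3 promoter by 1.07 nt (exact permutation p 0.922). That permutation moves labels as if modNTN had no effect in either context, so it cannot say whether the 2 shifts are equal.

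With modNTN fewer ends lay at positions 1 to 68, a boundary set after the profiles had been seen. Behind the RPS3 promoter these positions held 55.9, 54.2, 53.8 and 51.3% of the ends within 200 nt with modNNN and 19.8 and 19.4% with modNTN. Behind the PGK1 promoter they held 61.4 and 59.6% with modNNN and 22.9 and 22.3% with modNTN. The mean difference over both contexts was −36.1 percentage points (exact permutation p 0.0111, the smallest of 90 arrangements, adjusted p 0.0444 over 8 contrasts). Neither value allows for the choice of the boundary from these same libraries. Shares of ends add up to the whole in each library, so a share can move because another one did.

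**Figure D1:**
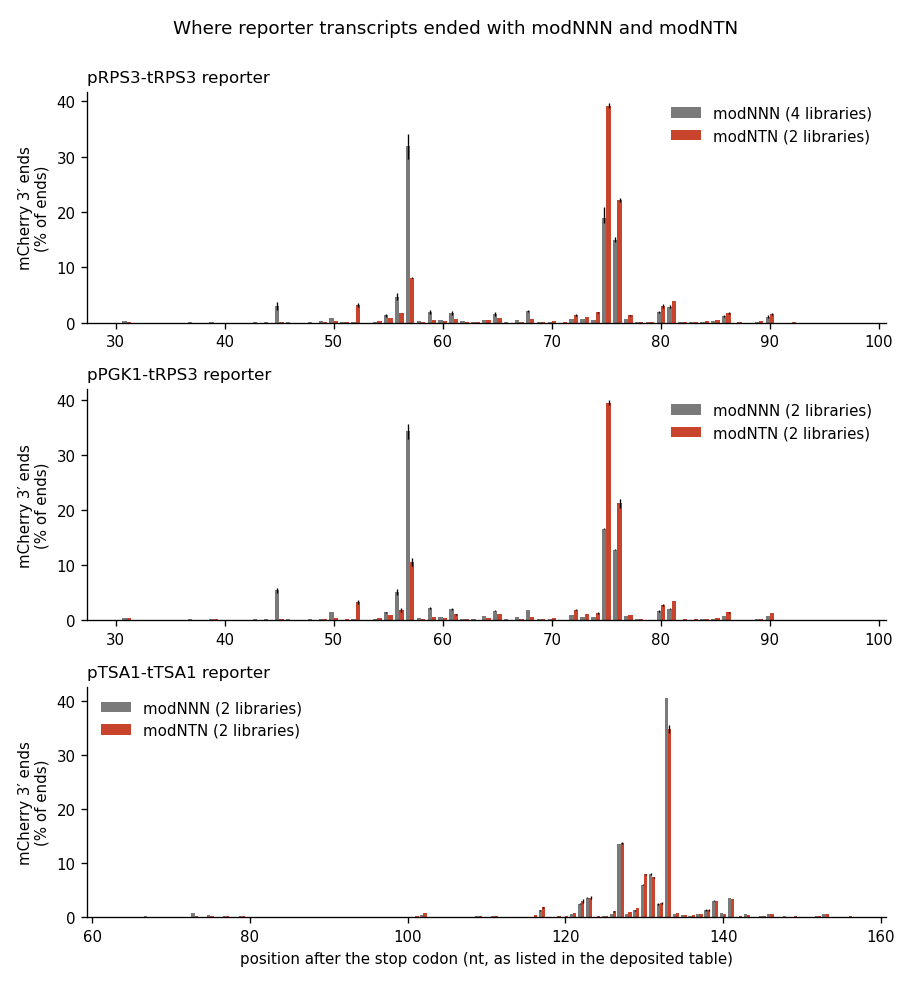
Share of mCherry 3′ ends (percent of ends within 200 nt) at each listed position after the stop codon for modNNN (grey) and modNTN (red) in the 3 contexts, with bars at the mean of the libraries and lines from the lowest to the highest library where the mean is at least 1%. Position 57 is the tallest grey bar and position 75 the tallest red bar in both tRPS3 contexts, while position 133 is the tallest bar of either terminator in pTSA1-tTSA1.

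Position 57, the main site with modNNN, held fewer ends with modNTN. It held 34.1, 33.6, 30.7 and 29.5% with modNNN and 8.02 and 8.28% with modNTN in pRPS3-tRPS3. In pPGK1-tRPS3 it held 35.6 and 32.9% with modNNN and 11.2 and 9.87% with modNTN. All modNTN libraries lay below all modNNN libraries, and edgeR's quasi-likelihood test on the counts per position gave a log2 change of −1.97 (SE 0.07, adjusted p 2.28e-32) behind the RPS3 promoter and −1.70 (SE 0.07, adjusted p 2.35e-28) behind the PGK1 promoter. Position 45, a minor site, fell further. It held 3.77, 3.39, 2.25 and 2.82% with modNNN and 0.163 and 0.151% with modNTN behind the RPS3 promoter. Behind the PGK1 promoter it held 5.81 and 4.93% with modNNN and 0.229 and 0.180% with modNTN. The log2 changes were −4.29 (SE 0.26) and −4.68 (SE 0.21).

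Positions 75 and 76 held more ends with modNTN than any other pair of positions. Adding the 27 inserted bases to positions 48 and 49, which hold 2 of the capitals in the RPS3 sequence above, gives the same 2 numbers. Where the inserts lie is not given in the sources used here, so whether these are the same sites was not tested. Position 75 held 18.0, 18.8, 18.0 and 20.8% with modNNN and 39.6 and 38.7% with modNTN in pRPS3-tRPS3. In pPGK1-tRPS3 it held 16.6 and 16.5% with modNNN and 39.1 and 39.8% with modNTN. Its share rose by 1.05 (SE 0.05) and 1.25 (SE 0.06) on the log2 scale in edgeR, and that of position 76 rose by 0.56 (SE 0.06) and 0.73 (SE 0.07), each with the RPS3 promoter given before the PGK1 promoter. Positions 80 and 81 rose as well, by 0.64 and 0.48 behind the RPS3 promoter and by 0.76 and 0.74 behind the PGK1 promoter.

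Position 52 rose from a small share. It held 0.0925, 0.0668, 0.152 and 0.0170% of ends with modNNN and 3.52 and 2.78% with modNTN in pRPS3-tRPS3. In pPGK1-tRPS3 it held 0.144 and 0.1302% with modNNN and 3.65 and 2.89% with modNTN. Its share rose by 5.48 (SE 0.27) and 4.56 (SE 0.24) on the log2 scale in edgeR. In modHTH, the other terminator with motif T in the middle, position 52 held 4.47 and 5.47% behind the RPS3 promoter and 3.03 and 2.82% behind the PGK1 promoter. In modNAA, which has no motif T, it held 0.677 and 0.753% and 0.488 and 0.515%. Between modHTH and modNTN over both tRPS3 contexts this position differed by 0.24 on the log2 scale, which did not pass (edgeR, adjusted p 0.0663).

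Of the 57 positions with at least 50 reads, edgeR called 34 behind the RPS3 promoter (59.6%), 14 higher (24.6%) and 20 lower (35.1%) with modNTN. Behind the PGK1 promoter it called 38 (66.7%), 13 higher (22.8%) and 25 lower (43.9%). Among positions 1 to 68, 2 of 31 were called higher and 18 lower behind the RPS3 promoter, and 2 were called higher and 23 lower behind the PGK1 promoter. Among positions 69 to 200 the counts were 12 higher and 2 lower of 26, and 11 higher and 2 lower. The 31 positions called in both contexts, 91.2% of the 34 and 81.6% of the 38, all had the same direction, and the 2 contexts share no library. None of the 57 positions differed in its change between the promoters at an adjusted p under 0.05 in edgeR (0.0%), with 6 at an unadjusted p under 0.05. Among the positions called in both contexts, 174 and 176 are the last ones tested, with log2 changes of −4.21 and −4.45 behind the RPS3 promoter and −4.81 and −3.82 behind the PGK1 promoter. Read from the unmodified terminators, where positions 1 to 68 hold 99.05 ± 0.0177% of ends in pRPS3-tRPS3 and 98.98 ± 0.118% in pPGK1-tRPS3 (SD, n = 2 each), nearly all tRPS3 ends lie before the boundary when no bases are inserted. Inserted bases can move a native site to a higher listed position, so these shares are not like those of the modified terminators.

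**Figure D2:**
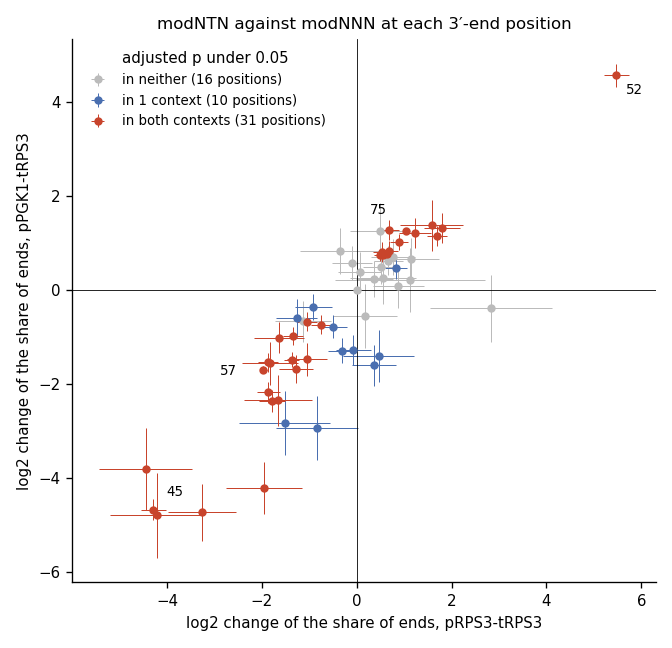
Log2 change of the share of mCherry 3′ ends with modNTN against modNNN at each of 57 positions, behind the RPS3 promoter (horizontal axis) and behind the PGK1 promoter (vertical axis), with lines of 1 SE. The 31 positions called in both contexts lie in the lower left or upper right corner region, with position 52 alone at the upper right (5.48 and 4.56).

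The other modified terminators place the modNTN profile. Positions 1 to 68 held 28.8 ± 1.18% of ends with modHTH and 40.8 ± 0.203% with modNAA in pRPS3-tRPS3 (SD, n = 2 each), beside 19.6 ± 0.241% with modNTN (SD, n = 2) and 53.8 ± 1.91% with modNNN (SD, n = 4). In pPGK1-tRPS3 they held 23.7 ± 0.0289% with modHTH, 30.4 ± 0.459% with modNAA, 22.6 ± 0.440% with modNTN and 60.5 ± 1.27% with modNNN (SD, n = 2 each). Of the 4 modified terminators modNTN had the lowest share in both contexts. edgeR called 37 of 57 positions between modHTH and modNTN over both tRPS3 contexts (64.9%). These comparisons share the modNTN and modNNN libraries with the ones above.

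In pTSA1-tTSA1 the mean end of the reporter lay at 130.4 and 130.7 nt with modNNN and at 130.7 and 130.5 nt with modNTN, a difference of 0.024 nt (exact permutation p 1.0, smallest possible 0.333 with 6 arrangements). Over the 3 contexts with equal weight the shift was 4.54 nt (exact permutation p 0.00556 of 540 arrangements, adjusted p 0.0444 over 8 contrasts). The shift in pTSA1-tTSA1 differed by −6.24 nt from that in pRPS3-tRPS3 (exact permutation p 0.0444, adjusted p 0.119). It differed by −7.31 nt from that in pPGK1-tRPS3 (exact permutation p 0.222, adjusted p 0.356), where 36 arrangements allow no p below 0.0556. Neither difference passed after adjustment. These permutations take modNTN to have no effect in either context, so they do not test whether the shifts differ. The groups overlapped in pTSA1-tTSA1 and did not in either tRPS3 context.

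Single positions of tTSA1 changed. edgeR called 8 of 43 positions (18.6%), 5 higher (11.6%) and 3 lower (6.98%) with modNTN, and 17 had an unadjusted p under 0.05. The main site, position 133, held 40.7 and 40.7% with modNNN and 35.6 and 34.2% with modNTN, a log2 change of −0.21 (SE 0.02, adjusted p 0.000192). Position 130 held 6.083 and 5.997% with modNNN and 8.03 and 7.84% with modNTN, a log2 change of 0.40 (SE 0.07, adjusted p 0.00552). Positions 102 (1.10), 117 (0.59), 126 (1.02) and 128 (0.81) rose on the log2 scale from at most 1.41% in any modNNN library. Positions 73 (−2.32) and 67 (−4.28) fell on the log2 scale, from 0.789 and 0.646% and from 0.289 and 0.247% with modNNN. The groups did not overlap at any of the 8 called positions, and over all 43 positions tested they did not overlap at 28 (65.1%). Without replicate 1 of modNTN the count was 2, and of the 8 positions 133 alone still passed. Without replicate 2 of modNNN the count was 4, and of the 8 positions 73, 128 and 133 still passed.

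Genes without an insert give the background of the method. Over the 3 contexts edgeR called 0 of 32 positions of native TSA1 (8 unadjusted), 0 of 33 of native PGK1 (1 unadjusted) and 1 of 30 of plasmid URA3 (3.33%). The mean end of URA3 differed by −0.124 nt (exact permutation p 0.320 of 540 arrangements), that of TSA1 by 0.027 nt (exact permutation p 0.709) and that of PGK1 by 0.517 nt (exact permutation p 0.826). Native RPS3 stood apart. Its ends lay 3.52 nt farther upstream with modNTN (exact permutation p 0.00370), the direction opposite to that of the reporter. With modNNN its mean end lay at 62.98 ± 1.25 nt in pRPS3-tRPS3 (SD, n = 4), at 68.7 ± 3.93 nt in pPGK1-tRPS3 and at 59.3 ± 0.719 nt in pTSA1-tTSA1 (SD, n = 2 each). With modNTN it lay at 59.2 ± 0.353, 62.4 ± 3.12 and 58.7 ± 0.323 nt in the same order (SD, n = 2 each). The 4 of 33 RPS3 positions called (12.1%) were 147, 169, 187 and 190, all lower with modNTN and all far downstream of the main sites. With at least 200 reads per position 1 of 20 was called. Position 187 held 0.840% of RPS3 ends on average with modNTN (0.186 to 2.10%, n = 6) and 2.05% with modNNN (0.294 to 4.63%, n = 8), so the groups overlapped. The reporter and native RPS3 share terminator sequence, and how reads in shared bases were assigned is not given in the sources used here; its part in the result was not tested.

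The level of mCherry had an unadjusted p under 0.05 in edgeR in pPGK1-tRPS3 and pTSA1-tTSA1, with opposite signs. It did not pass in any context once p was adjusted over all features. Nearly all of those features are host genes, so the adjusted p does not show that the reporter level was unchanged. In pRPS3-tRPS3 mCherry stood at 3043, 4872, 2905 and 4359 CPM with modNNN and at 4382 and 4684 CPM with modNTN, and the groups overlapped. In pPGK1-tRPS3 it stood at 7783 and 5602 CPM with modNNN and at 13024 and 8074 CPM with modNTN, both above modNNN. In pTSA1-tTSA1 it stood at 3751 and 4077 CPM with modNNN and at 1861 and 1842 CPM with modNTN, both below modNNN. edgeR gave log2 changes of 0.25 (SE 0.26, 95% interval −0.26 to 0.75), 0.65 (SE 0.30, 0.06 to 1.24) and −1.08 (SE 0.30, −1.67 to −0.48) in this order. The unadjusted p was 0.342, 0.0398 and 0.00157, and adjusted over all features of each contrast it was 0.750, 1.00 and 0.989. In RNA from whole cultures, fewer cells with a transcript and less of it per cell cannot be told apart.

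Set against URA3 from the same plasmid, mCherry gave ratios that did not overlap between the terminators in 2 of the 3 contexts. The ratio of mCherry to URA3 counts was 0.850, 0.900, 0.950 and 1.03 with modNNN and 0.885 and 0.815 with modNTN in pRPS3-tRPS3, where the groups overlapped. In pPGK1-tRPS3 it was 1.40 and 1.39 with modNNN and 1.59 and 1.69 with modNTN. In pTSA1-tTSA1 it was 2.63 and 2.34 with modNNN and 1.07 and 0.972 with modNTN. The log2 ratio differed by −0.13 (exact permutation p 0.267), 0.24 (exact p 0.333) and −1.28 (exact p 0.333) in the 3 contexts, and the last 2 are the smallest p that 6 arrangements allow. Between contexts, the difference was larger in pPGK1-tRPS3 than in pRPS3-tRPS3 by 0.37 (exact permutation p 0.0444, adjusted p 0.222 over 8 contrasts). In pTSA1-tTSA1 it differed from that in pPGK1-tRPS3 by −1.52 (exact permutation p 0.0556, the smallest of 36 arrangements, adjusted p 0.222). Both permutations take modNTN to have no effect in either context, so they do not test whether its effects are unequal. The log2 change of mCherry counts with modNTN in pTSA1-tTSA1 differed from that in pPGK1-tRPS3 by −1.73 (SE 0.43). The edgeR test of that difference gave an unadjusted p of 0.000440 and an adjusted p of 1.00 over all features. URA3 alone changed by 0.39 (SE 0.26), 0.43 (SE 0.30) and 0.20 (SE 0.30) in pRPS3-tRPS3, pPGK1-tRPS3 and pTSA1-tTSA1, none of which passed (adjusted p 0.575, 1.00 and 0.989). Over the 3 contexts URA3 was higher with modNTN by 0.34 (SE 0.17, 95% interval 0.01 to 0.66). The edgeR test of that change gave an unadjusted p of 0.0533 and an adjusted p of 0.902 over all features.

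**Figure D3:**
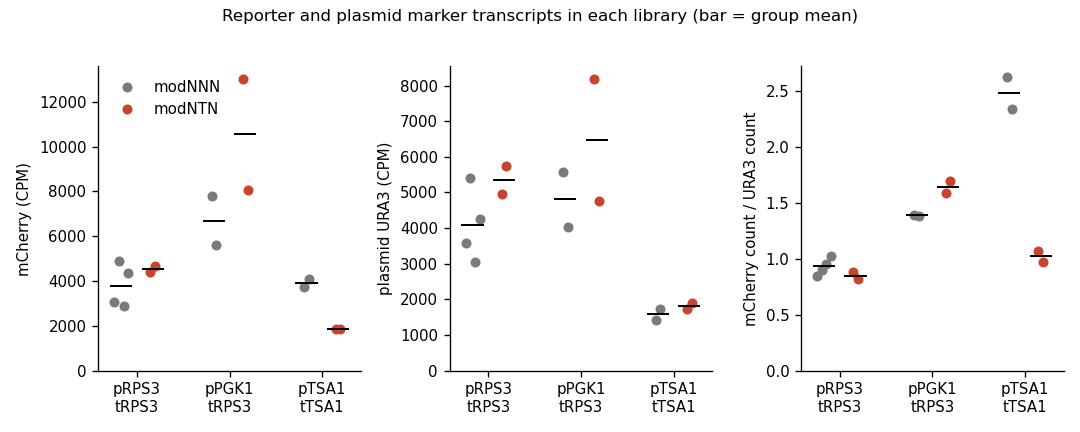
mCherry (CPM), plasmid URA3 (CPM) and the ratio of their counts in each of the 14 libraries (points, modNNN grey and modNTN red), with bars at group means. In pTSA1-tTSA1 the modNTN libraries lie at 1861 and 1842 CPM of mCherry, below modNNN at 3751 and 4077 CPM, while in pPGK1-tRPS3 they lie above it.

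Among host genes, few differed between the terminators over all 3 contexts. Of 5142 genes tested of 5695, edgeR called 0 higher and 1 lower with modNTN (0.0194%), with 285 (5.54%) at an unadjusted p under 0.05. The gene was ZPS1, which encodes a cell surface protein made when zinc is low, with a log2 change of −1.65 (SE 0.26, adjusted p 0.00452). That mean over contexts came from 1 context: ZPS1 changed by −5.05 (SE 0.53, adjusted p 2.54e-06, 33.2-fold lower) in pRPS3-tRPS3, by 0.16 (SE 0.41) in pPGK1-tRPS3 and by −0.06 (SE 0.41) in pTSA1-tTSA1. The difference to pRPS3-tRPS3 was itself past the threshold in edgeR, at 5.22 (SE 0.66, adjusted p 0.000119) for pPGK1-tRPS3 and 4.99 (SE 0.66, adjusted p 0.000252) for pTSA1-tTSA1. The count over the 3 contexts was 0 when modNTN replicate 2 of pRPS3-tRPS3 or modNTN replicate 2 of pPGK1-tRPS3 was left out, and in a fit of the 14 modNTN and modNNN libraries alone.

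A further 20 genes had the largest changes over the 3 contexts among 29 with an unadjusted p under 0.01, the same sign in each context and at least 32 CPM, and none passed the adjusted test. RRP12, a ribosome export factor, had the lowest value at −0.43, followed by the aminophospholipid flippase gene DNF2 (−0.40) and CDC25 (−0.40), the exchange factor that activates Ras. URA1, dihydroorotate dehydrogenase of pyrimidine synthesis, was at −0.30, and NOP16 and RRP43 of ribosome biogenesis at −0.29 and −0.28. The highest were APT2 (0.39), a sequence relative of adenine phosphoribosyltransferase, CYT2 (0.38), which attaches haem to cytochrome c1, YIM1 (0.31), the cyclin gene CLN1 (0.30) and the PAS kinase gene PSK1 (0.30). In pRPS3-tRPS3, PSK1 itself passed (0.53, adjusted p 0.0383). The other 9 of the 20 lay between −0.35 and −0.28 (SQS1, SMY2, EMW1 and MOT1) or between 0.23 and 0.30 (IML2, SHR5, ACF2, RBD2 and BAT2).

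Within pRPS3-tRPS3, edgeR called 21 genes higher (0.408%) and 11 lower (0.214%) with modNTN, 32 in all (0.622%), and 694 (13.5%) had an unadjusted p under 0.05. In none of the 32, which the same libraries chose, did the 2 modNTN libraries overlap the 4 modNNN libraries, and of all 5142 genes 1069 (20.8%) did not overlap. In pPGK1-tRPS3 it called 0 (0.0%) with 91 (1.77%) at an unadjusted p under 0.05, and DESeq2 also called 0 with 27 unadjusted. In pTSA1-tTSA1 it called 0 (0.0%) with 208 (4.05%) at an unadjusted p under 0.05, and DESeq2 called 0 with 113 unadjusted. The count in pRPS3-tRPS3 depended on single libraries. It was 7, 8 and 105 without modNNN replicates 1, 3 and 4, and 1 and 10 without modNTN replicates 1 and 2. The count also moved without libraries that are not in this contrast. It rose without modNNN replicate 1 or 2 of pPGK1-tRPS3 and fell without modNTN replicate 1 of pPGK1-tRPS3, and why was not tested. DESeq2 called 61, 33 higher and 28 lower. A fit of the 14 modNTN and modNNN libraries alone called 2, ZPS1 and ZRT1, and no gene higher.

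The 3 called genes with the largest changes are known targets of the zinc regulator Zap1. ZPS1 stood at 519.8, 291.2, 543.9 and 340.9 CPM with modNNN and at 18.1 and 7.31 CPM with modNTN in pRPS3-tRPS3. ZRT1, the high-affinity zinc transporter, stood at 1045, 732, 1225 and 994 CPM with modNNN and at 236 and 281 CPM with modNTN, a log2 change of −1.95 (SE 0.27, adjusted p 0.000307). ADH4, an alcohol dehydrogenase gene, stood at 226, 185, 261 and 198 CPM with modNNN and at 81.8 and 67.5 CPM with modNTN, a log2 change of −1.54 (SE 0.33, adjusted p 0.0291). In all 3 genes every modNTN library lay below every modNNN library. Without modNTN replicate 1, ZPS1 was the only gene called in the context, and ZRT1 passed under all other alternatives run. ADH4 also did not pass without modNTN replicate 2, modNNN replicate 1 or modNNN replicate 3.

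The other plasmids of the context show on which side the levels lie. ZPS1 stood at 13.8 and 10.9 CPM with the unmodified terminator, 15.5 and 21.1 CPM with modHTH and 287.9 and 348.3 CPM with modNAA in pRPS3-tRPS3. In POT1-ccdB, the plasmid without a reporter, it stood at 13.7 and 16.9 CPM. The 2 modNTN libraries thus lay near those of 3 other plasmids, and the 4 modNNN libraries lay near those of modNAA. ZRT1 had the same order, with 358 and 398 CPM for the unmodified terminator, 367 and 399 CPM for modHTH, 1138 and 904 CPM for modNAA and 276 and 508 CPM for POT1-ccdB. ADH4 stood at 90.1 and 70.2, 83.9 and 85.1, 186 and 201, and 70.5 and 58.7 CPM in that order. In the 2 other contexts ZPS1 stood at 727 to 1374 CPM with modNNN and at 778 to 1112 CPM with modNTN, so both terminators lay above every pRPS3-tRPS3 library.

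**Figure D4:**
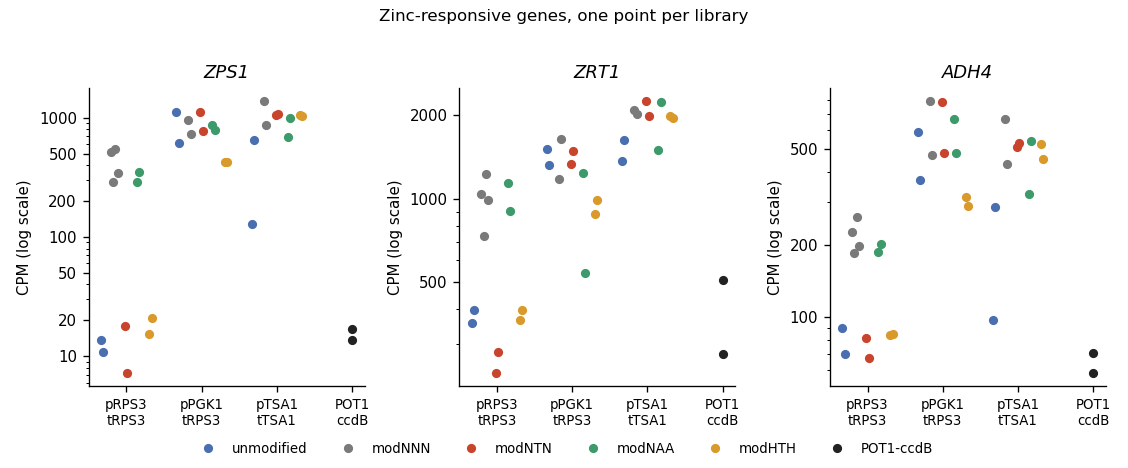
ZPS1, ZRT1 and ADH4 (CPM, log scale) in each of the 34 libraries, by context (horizontal axis) and terminator (colour). In pRPS3-tRPS3 ZPS1 stands at 18.1 and 7.31 CPM with modNTN (red) against 291.2 to 543.9 CPM with modNNN (grey), and in the other contexts the 2 terminators overlap.

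Of 16 tested targets of Zap1, the activator of zinc-responsive genes, those 3 were called lower in pRPS3-tRPS3 (0.214% of all genes) and none was called higher. Of all 16, 14 had a negative log2 change, 7 had an unadjusted p under 0.05 and a negative sign (6.79% of all genes), and the median was −0.23 against −0.01 for all genes. VEL1 was at −2.25 (adjusted p 0.148), and ZAP1, which encodes the regulator and is its own target, at −0.74 (adjusted p 0.117). ZRT2, ZRT3 and ZRC1, which carry zinc across the plasma and vacuolar membranes, lay at −0.10, −0.22 and −0.22. The median of the list was 0.00 in pPGK1-tRPS3 and 0.05 in pTSA1-tTSA1, with 0 called in either. The difference between pTSA1-tTSA1 and pRPS3-tRPS3 passed for ZPS1, ZRT1 (1.99, adjusted p 0.0326) and the acid phosphatase gene PHO12 (1.61, adjusted p 0.0301), which made 3 of 5142 genes (0.0583%). For pPGK1-tRPS3 it passed for ZPS1 alone (0.0194%), although the count was 32 without replicate 2 of modNNN in pPGK1-tRPS3 and 10 without replicate 4 of modNNN in pRPS3-tRPS3. The differences of ZRT1 and PHO12 did not pass when any 1 of the pRPS3-tRPS3 and pTSA1-tTSA1 libraries was left out, except modNNN replicates 2 and 4 of pRPS3-tRPS3. PHO12 is nearly identical to PHO11, so its counts are uncertain.

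Also called lower in pRPS3-tRPS3 were 2 genes of copper uptake. FRE1, the surface reductase that prepares iron and copper for uptake, stood at 55.3, 66.3, 54.3 and 56.7 CPM with modNNN and at 19.2 and 32.6 CPM with modNTN (log2 change −1.17, adjusted p 0.0147). CTR1, the copper transporter, stood at 49.1 to 56.4 CPM and at 24.3 to 32.1 CPM (−0.89, adjusted p 0.0106). With the unmodified terminator FRE1 stood at 23.0 to 25.2 CPM there, with modHTH at 22.8 to 28.6 and with modNAA at 45.6 to 49.1. CTR1 stood at 30.7 to 34.2, 34.7 to 36.1 and 46.7 to 53.8 CPM in that order. The remaining 6 were the splicing factor gene SPP2 (−0.83), YML108W (−0.79), the aspartyl protease gene MKC7 (−0.69), the ribosome biogenesis genes NOP12 (−0.64) and RLP24 (−0.61), and the riboflavin transporter gene MCH5 (−0.63). NOP12 stood at 107 to 111 CPM with the unmodified terminator, inside its modNNN range of 90.6 to 134.7 CPM.

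Among the 21 genes called higher in pRPS3-tRPS3 were genes of glycogen and trehalose metabolism. GPH1, glycogen phosphorylase, stood at 160, 227, 158 and 245 CPM with modNNN and at 424 and 326 CPM with modNTN (log2 change 0.92, SE 0.22, adjusted p 0.0463), and did not pass without either modNTN library, without modNNN replicate 1 or 3, or without any 1 modNTN library of the other contexts. GAD1, glutamate decarboxylase, stood at 52.7, 58.7, 55.3 and 67.8 CPM with modNNN and at 113 and 107 CPM with modNTN (0.91, SE 0.16, adjusted p 0.00782), and did not pass without modNTN replicate 1. The glycogen synthase gene GSY1 (0.79), the phosphoglucomutase gene PGM2 (0.84), the trehalose synthase gene TPS1 (0.69), IGD1 (0.90), an inhibitor of glycogen debranching, and SOL4 (0.85) of the pentose phosphate pathway were called higher as well. The peroxiredoxin gene TSA2 was higher by 1.09 (adjusted p 0.0147), at 13.8 to 27.7 CPM with modNNN and 41.2 to 51.2 CPM with modNTN. With the unmodified terminator GAD1 stood at 86.2 to 96.8 CPM, with modHTH at 114 to 135 and with modNAA at 71.0 to 74.5. GPH1 stood at 297 to 310, 404 to 460 and 237 to 250 CPM in that order. TSA2 stood at 34.1 to 37.5, 43.3 to 47.8 and 25.0 to 28.4 CPM. In GAD1, GPH1 and TSA2 the unmodified libraries thus lay between those of modNNN and modNTN. AVT6 (0.96), which exports amino acids from the vacuole, USV1 (0.90), a transcription factor gene, DCS2 (0.83), a stress-induced relative of a decapping scavenger, and the mitochondrial outer membrane genes OM45 (0.72) and OM14 (0.69) were also called. So were COR1 (0.50) of respiratory complex III, the sterol-binding PRY1 (0.75), NNR1 (0.68), WTM1 (0.47), YBR053C (0.87), YJR096W (0.83) and YER079W (0.59).

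Of 21 tested genes of the environmental stress response, 4 were called higher in pRPS3-tRPS3 (SOL4, PGM2, TPS1 and GPH1), beside 0.408% of all genes. Of the 21, 20 had a positive log2 change, with a median of 0.52 against −0.01 for all genes. A positive sign and an unadjusted p under 0.05 were found in 14 (6.71% of all genes). The heat-shock genes HSP26 (0.79, adjusted p 0.147) and HSP12 (0.44, adjusted p 0.346) did not pass, and HSP104 stood at 0.05. In pPGK1-tRPS3 6 of the 21 were positive with a median of −0.09, and in pTSA1-tTSA1 4 were positive with a median of −0.14, with 0 called in either. The difference between contexts did not pass for any gene of this list.

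Growth genes lay on the other side without passing in most cases. Of 52 tested ribosome biogenesis genes 48 had a negative log2 change in pRPS3-tRPS3 with a median of −0.40. A negative sign and an unadjusted p under 0.05 were found in 25 (6.79% of all genes), and 1, NOP12, was called lower (0.214% of all genes). Of 81 tested large-subunit ribosomal protein genes 75 were negative with a median of −0.27, 22 had a negative sign and an unadjusted p under 0.05 (6.79% of all genes) and 0 were called. The median of the ribosome biogenesis list was 0.04 in pPGK1-tRPS3 and −0.10 in pTSA1-tTSA1, and that of the ribosomal protein list was 0.01 and 0.17. Of 13 tested targets of the phosphate regulator Pho4, 0 were called, with medians of −0.47, 0.09 and 0.23 in pRPS3-tRPS3, pPGK1-tRPS3 and pTSA1-tTSA1. Of 7 tested genes of pyrimidine synthesis, the pathway of the plasmid marker URA3, 0 were called, with medians of −0.31, −0.10 and 0.02. No gene was called among 8 tested hexose transporters, 66 mitochondrial ribosomal proteins or 33 proteasome subunits.

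**Figure D5:**
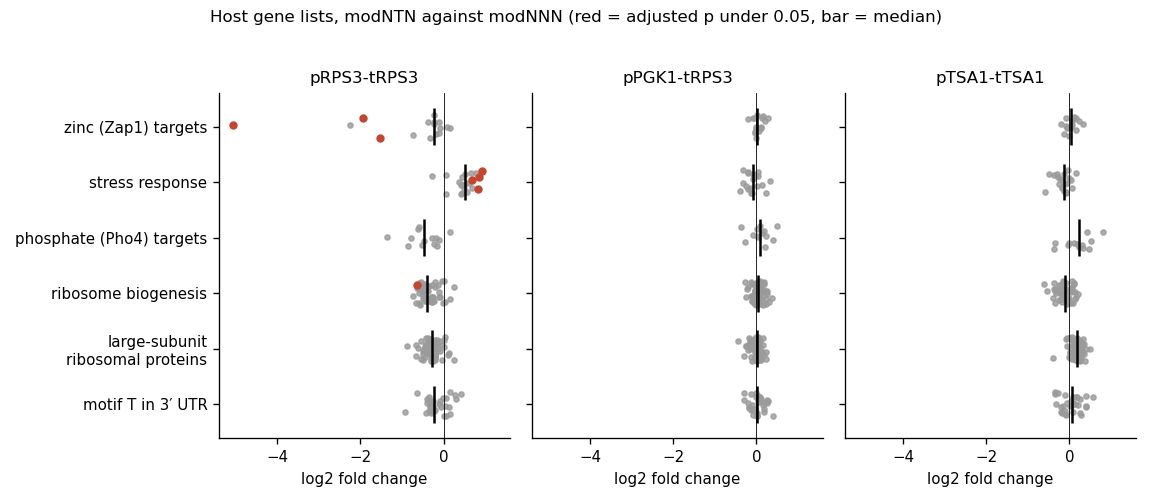
Log2 fold change with modNTN against modNNN (horizontal axis) for the genes of 6 lists (rows) in the 3 contexts, each point a gene, red at an adjusted p under 0.05, with a bar at the median of the list. Called genes appear in pRPS3-tRPS3 alone, where the stress response list has its median at 0.52 and the ribosome biogenesis list at −0.40.

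The 32 genes called in pRPS3-tRPS3 were looked up in the contexts that share no library with it. Of the 21 called higher there, 7 (33.3%) had a positive log2 change in pPGK1-tRPS3, where 49.4% of all genes did, and 8 (38.1%) in pTSA1-tTSA1, where 51.3% did. Of the 11 called lower, 1 (9.09%) was negative in pPGK1-tRPS3, where 50.6% of all genes were, and 7 (63.6%) in pTSA1-tTSA1, where 48.7% were. None of the 32 had an unadjusted p under 0.05 in the same direction in either.

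Host genes that carry motif T themselves were a list of their own. An exact TGTACAATA on the sense strand lies in 30 of 4672 annotated 3′ UTRs (0.642%), and all 30 genes were tested. Those whose messages bear on the comparison are shown from RefSeq R64 with the motif in capitals, PUF6 and PUF4 because they encode Puf proteins, and SUP45, LSP1 and NSA2 because they have the lowest p values of the list beside PUF6.
PUF6, chrIV:1441373-1441401, minus strand: tataagcatcTGTACAATAataataaaaa
PUF4, chrVII:468854-468882, plus strand: taatatctttTGTACAATActaaaataca
SUP45, chrII:530764-530792, minus strand: tttaatttttTGTACAATAtaatatatac
LSP1, chrXVI:550355-550383, minus strand: gaagtatataTGTACAATAaaaatgccta
NSA2, chrV:413212-413240, minus strand: cgtcattctcTGTACAATAtaacaaatca
The motif begins 42 nt after the stop codon in PUF6, 57 in PUF4, 87 in SUP45, 259 in LSP1 and 164 in NSA2.

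None of the 30 was called in any context. Their median log2 change was −0.22 in pRPS3-tRPS3, 0.02 in pPGK1-tRPS3 and 0.05 in pTSA1-tTSA1, and −0.04 over all contexts, against −0.01, 0.00, 0.01 and 0.00 for all genes. The ribosome biogenesis list had a median of −0.40 in pRPS3-tRPS3. Whether motif T has a part in the lower median of the 30, which include NSA2 of large-subunit assembly, was not tested. In pRPS3-tRPS3 1 had a positive and 3 had a negative change at an unadjusted p under 0.05, 4 of 30 where 13.5% of all genes did: LSP1 (0.41, adjusted p 0.125), a component of eisosomes in the plasma membrane, and PUF6 (−0.64, adjusted p 0.0754), the translation termination factor gene SUP45 (−0.40, adjusted p 0.121) and NSA2 (−0.41, adjusted p 0.146), which acts in large-subunit assembly. PUF6 stood at 125.2, 96.8, 133.6 and 87.1 CPM with modNNN and at 66.0 and 75.4 CPM with modNTN there. In pPGK1-tRPS3 it stood at 73.5 and 101.2 CPM with modNNN and at 97.1 and 96.6 CPM with modNTN. The groups were apart in the former and overlapped in the latter.

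The proteins known to read such elements were not called either. Of 7 Puf family genes 0 were called in any context, with medians of −0.06, 0.01 and −0.04. PUF3, which binds messengers of mitochondrial proteins, lay at 0.06, −0.02 and 0.36, PUF4 at −0.12, 0.01 and 0.19, and MPT5, also known as PUF5, at 0.24, −0.29 and −0.04 in pRPS3-tRPS3, pPGK1-tRPS3 and pTSA1-tTSA1. Of 32 genes of deadenylation and decapping, 0 were called, among them the deadenylase genes CCR4 (0.62, adjusted p 0.163) and POP2 (0.45, adjusted p 0.178) in pRPS3-tRPS3. Of 21 genes of cleavage and polyadenylation, 0 were called, with medians of −0.12, −0.02 and −0.01. HRP1 had the lowest p of these in pRPS3-tRPS3 (−0.37, adjusted p 0.192).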

How the data were processed

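Per the submitters' processing notes, reads went through FastQC, cutadapt, HISAT2, SAMtools, featureCounts, bedtools and MultiQC against sacCer3 (R64); versions, handling of reads with several matches and strand settings are not given in the sources used here. The authors deposited whole-number read counts, not normalized, for 5698 features (2 on the plasmid), and deposited counts of 3′ ends at 200 positions after the stop codon for mCherry and for PGK1, RPS3, TSA1 and URA3. The transcript annotation the authors deposited gives transcript starts and ends and was used for 3′ UTRs. RefSeq locus tags were found for 5550 features. Plasmid rows and YEL021W (0 counts in all libraries) were left out of host genes.

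The quasi-likelihood test of edgeR 4.0.16 was run in R 4.3.3 after TMM scaling and filterByExpr, with 1 coefficient per plasmid group over 34 libraries (32 with a reporter for mCherry). Library sizes for positions were all ends within 200 nt, with at least 50 reads per position. p-values were adjusted by Benjamini-Hochberg over all features or positions of a contrast at a threshold of 0.05. Ratios and mean ends were compared by exact 2-sided permutation within contexts. Differences between contexts used the same permuted labels, which take modNTN to have no effect in either context. The fits were tested on simulated data. Alternatives were DESeq2 1.42.0, other scaling and filters, the 14 libraries alone, a replicate block, each library left out, and windows of 10 positions. Members, lists, tests and named genes were chosen with earlier results of these data known. Named host genes were those past the threshold over the 3 contexts, the 10 largest changes each way at an unadjusted p under 0.01 with at least 32 CPM and 1 sign, up to 5 each way per context or difference, and up to 4 per list by p at an unadjusted p under 0.05. The further genes among the 32 called in pRPS3-tRPS3 and other list members were chosen after their values were seen.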

Additional observations from a re-analysis of the deposited data

Results flagged for a closer look

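Within the 4 modNNN libraries of pRPS3-tRPS3, CDC25 and UTP20 each had a library far from the other 3, with a gap of 0.891 and 0.831 of the group's range, above Dixon's critical value. CDC25 stood at 42.8, 54.9, 56.4 and 56.0 CPM, and UTP20, of the small-subunit processome, at 183.8, 189.1, 197.3 and 117.5 CPM. Of 87 groups tested, these 2 were past the critical value, where chance gives about 1 in 20.

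The difference between modNTN and modNNN libraries in 3 host genes itself differed between contexts past the threshold in edgeR. For ZPS1 the log2 change was 5.22 higher in pPGK1-tRPS3 and 4.99 higher in pTSA1-tTSA1 than in pRPS3-tRPS3. For ZRT1 it was 1.99 higher and for PHO12 1.61 higher in pTSA1-tTSA1 than in pRPS3-tRPS3. PHO12 stood at 51.4, 35.8, 59.5 and 42.9 CPM with modNNN and at 25.4 and 28.7 CPM with modNTN in pRPS3-tRPS3, and at 25.4 and 29.2 CPM with modNNN and 45.2 and 53.3 CPM with modNTN in pTSA1-tTSA1. The change of the log2 ratio of mCherry to URA3 differed by 0.37 between pPGK1-tRPS3 and pRPS3-tRPS3. The shift of the mean 3′ end differed by −6.24 nt between pTSA1-tTSA1 and pRPS3-tRPS3. Both had an exact permutation p of 0.0444, but neither passed after adjustment over 8 contrasts (adjusted p 0.222 and 0.119). These permutations take modNTN to have no effect in either context, so they do not test whether its effects are unequal.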

How the results depend on the processing

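Over the alternatives, 388 main results kept their direction and side of the threshold, 45 moved and 4 reversed, and of the results on named genes and positions 905 kept theirs, 80 no longer passed and none reversed. The causes were not tested beyond the smaller number of libraries in some fits. With the 14 libraries alone, edgeR called 0 genes over the 3 contexts, 2 lower in pRPS3-tRPS3 and 2 for the difference between pPGK1-tRPS3 and pRPS3-tRPS3. DESeq2 gave 61 in pRPS3-tRPS3 and 2 for that difference, and library totals also gave 2 for that difference. For the difference between pTSA1-tTSA1 and pRPS3-tRPS3 the count was 5 with at least 10 counts in every library and 1 without modNNN libraries 3 and 4. With URA3 counts as the size factor the mCherry change in pRPS3-tRPS3 was −0.13. With the median in place of the mean, the end in pTSA1-tTSA1 differed by −0.5 nt. In windows of 10 positions, 9 (4 higher, 5 lower), 8 (2 and 6) and 9 (4 and 5) were called in pRPS3-tRPS3, pPGK1-tRPS3 and both together, and 2 for the difference of promoters. With at least 200 reads, 1 native RPS3 position was called.

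Leaving out each library in turn gave 0 to 1 genes over the 3 contexts, 1 to 105 in pRPS3-tRPS3, 1 to 32 and 1 to 6 for the differences of pPGK1-tRPS3 and pTSA1-tTSA1 to it, and 0 in the 2 other contexts. It gave 2 to 11 positions in pTSA1-tTSA1, 28 to 36 in pRPS3-tRPS3, 31 to 39 in pPGK1-tRPS3 and 0 to 2 for the difference of promoters. The mean end in pTSA1-tTSA1 differed by −0.12 to 0.17 nt (−0.123 without modNNN replicate 1, −0.0580 without modNTN replicate 1). mCherry ran from 0.14 to 0.40 in pRPS3-tRPS3, 0.27 to 0.95 in pPGK1-tRPS3 and −1.14 to −1.02 in pTSA1-tTSA1. ZPS1 in pRPS3-tRPS3 ran from −5.84 to −4.55 and passed each time.

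Replicate numbers were not taken to pair the libraries: the labels do not say what they mark, and the correlation of same-numbered deviations was not positive in every context, at 0.173, 0.280 and −0.203 in pRPS3-tRPS3, pPGK1-tRPS3 and pTSA1-tTSA1. With a replicate block, 20 genes (7 higher, 13 lower) were called in pRPS3-tRPS3, 1 over the 3 contexts, 1 for the difference of pTSA1-tTSA1 to pRPS3-tRPS3, 13 positions (9 higher, 4 lower) in pTSA1-tTSA1 and 2 for the difference of promoters. With 2 libraries per group, exact tests within pPGK1-tRPS3 or pTSA1-tTSA1 could not go below 0.333.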
